A study of Rattus norvegicus with 18 samples.

Results

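The nuclear-encoded proteins of the mitochondrial respiratory chain and of ATP synthase were followed as 1 set of transcripts. Members were all probe sets, the groups of array features that stand for 1 transcript on an Affymetrix chip, whose single annotated symbol begins with Nduf followed by a, b, c, s or v, with Uqcr, with Cox4 to Cox8 or with Atp5, or is Sdha, Sdhb, Sdhc or Sdhd. This gave 97 probe sets of 85 genes, out of 20359 probe sets of 13811 genes with a single symbol and 31142 probe sets without controls. Of these, 89 lay on the first array (RAE230A, chip A) and 8 on the second (RAE230B, chip B). By symbol, 42 genes belonged to complex I, 4 to complex II, 7 to complex III, 16 to complex IV and 16 to ATP synthase, called complex V. A further 7 probe sets that carry a matching symbol among several were not used.

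Each of 9 colonies had grown from 1 fetal rat calvaria cell, a population of the skull that holds bone-forming cells, and was read on both chips, which makes 18 arrays. The labels give 3 types with colonies I, II and III in each. Colonies of the first type expressed the markers osteocalcin, a bone matrix protein, and adipsin, a protease of fat cells, and are called both I, both II and both III. The osteocalcin colonies expressed that marker alone, and the neither colonies expressed none of the pair. The type is the submitters' category from marker gene expression, and each colony is 1 clone. All 9 shared the treatment: single-cell sorting by flow cytometry, then 4 weeks in a-MEM with fetal bovine serum, ascorbic acid, BGP and Dex at 37 C in 5% CO2. RNA from 100 to 300 cells per colony was amplified before labelling. Strain, age beyond fetal and the number of animals or cell preparations behind the colonies are not given in the sources used here, and p-values measure the spread between these colonies.

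Values are MAS5 signals, a linear brightness, after each array was rescaled to a 2%-trimmed mean of 1500. A probe set was tested if its signal exceeded the array's median on at least 3 of 9 colonies, and differences are in log2(signal + pseudocount), a scale on which differences of dim probe sets come out too small. Of the 97 member probe sets, 90 passed, from 82 genes. The 3 genes with no tested probe set were Cox6a2, Cox6b2 and Cox8b. Signals of different probe sets are not comparable with each other, so each gene is compared only with itself across colonies. In total RNA of a colony, fewer cells that express a gene and less RNA per cell cannot be told apart.

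Some facts about the arrays touch every result. The deposited trimmed mean was 64.4 on the chip A array of osteocalcin I, hybridized on another day, against 1500.3 to 1500.5 on the other chip A arrays. The chips share 100 probe sets, and over these the best chip B partner of a chip A array was that of the same colony for 8 of 9 colonies. The exception was osteocalcin III, whose chip A array correlated at 0.403 with its own chip B array and at 0.551 with that of both III. On chip A, station 1 of the fluidics instrument that washes and stains the arrays processed the 3 osteocalcin colonies with both I and II, and station 2 processed both III with the 3 neither colonies, so station and type cannot be told apart for osteocalcin against neither on that chip. A station block on chip A can be estimated only from both III against both I and II. The 3'/5' signal ratio of Gapdh, a measure of how far the copied RNA reaches towards its 5' end, was 2.08 on chip A in neither II and 8.64 to 13.8 in the other 8 colonies. The same ratio of beta-actin on chip A was 11.7 in neither II, between 5.71 in neither I and 14.6 in both I. On chip B it was 48.7 in neither II, the highest of the chip B arrays. The marker transcripts of the labels were dim: Bglap, which encodes osteocalcin, had signals of 21, 22 and 45 in both colonies, 27, 53 and 56 in osteocalcin colonies and 43.5, 59.5 and 299 in neither colonies. Cfd, which encodes adipsin, had 251, 413 and 522 in both colonies, 195, 245.5 and 136 in osteocalcin colonies and 113, 284.5 and 308 in neither colonies, and of the other osteoblast markers Alpl and Ibsp were also below the array median on all 9 arrays.

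Complex I takes electrons from NADH and complex II takes them from succinate; both pass them through ubiquinone to complex III, which hands them to cytochrome c and on to complex IV, where oxygen is reduced. Complexes I, III and IV pump protons across the inner membrane, and complex V lets them flow back to make ATP. Complexes I, III, IV and V also contain subunits encoded in mitochondrial DNA, which are not members here, whereas all subunits of complex II are nuclear. Bone-forming cells and fat cells both increase mitochondrial content as they mature in culture. The nuclear genes of the set are known for shared promoter motifs, among them those of NRF1, of GABPA (also called NRF2), of the oestrogen-related receptors (ERR) and of YY1.

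Promoter sequences are shown first, as a description of the members' start regions. RefSeq promoters (assembly GRCr8, 250 bases before to 50 after the annotated start) were matched by symbol for 77 of the 85 genes; Atp5pd, Cox4i2, Cox6a1, Cox6c, Cox6c-ps1, Ndufa8, Ndufb9 and Uqcr11 had none. Transcripts of Ndufs7 and Cox8a followed the rest of the set closely, and Uqcrc1 holds more than 1 kind of motif. Sdhb and Ndufv1 had their lowest type mean in neither colonies, although those of Sdhb overlapped the both colonies. The promoters of these 5 genes are printed below. Each runs 5′ to 3′ along the gene's strand, and capitals mark a match to 1 of the 4 motifs on either strand.
Ndufs7, chr7:10110449-10110748, minus strand: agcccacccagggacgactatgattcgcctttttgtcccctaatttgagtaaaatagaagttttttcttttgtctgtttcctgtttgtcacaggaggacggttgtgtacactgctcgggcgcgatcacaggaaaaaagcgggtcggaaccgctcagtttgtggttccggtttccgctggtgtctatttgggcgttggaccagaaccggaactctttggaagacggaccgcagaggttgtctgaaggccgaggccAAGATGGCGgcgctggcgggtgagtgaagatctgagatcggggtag
Cox8a, chr1:213833574-213833873, minus strand: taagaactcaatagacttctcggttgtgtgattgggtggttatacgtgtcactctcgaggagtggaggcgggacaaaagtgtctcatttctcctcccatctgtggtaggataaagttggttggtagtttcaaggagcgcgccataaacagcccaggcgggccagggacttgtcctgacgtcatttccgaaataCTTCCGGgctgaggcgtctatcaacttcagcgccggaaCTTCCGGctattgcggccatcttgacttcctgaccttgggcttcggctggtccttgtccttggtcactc
Uqcrc1, chr8:118467973-118468272, plus strand: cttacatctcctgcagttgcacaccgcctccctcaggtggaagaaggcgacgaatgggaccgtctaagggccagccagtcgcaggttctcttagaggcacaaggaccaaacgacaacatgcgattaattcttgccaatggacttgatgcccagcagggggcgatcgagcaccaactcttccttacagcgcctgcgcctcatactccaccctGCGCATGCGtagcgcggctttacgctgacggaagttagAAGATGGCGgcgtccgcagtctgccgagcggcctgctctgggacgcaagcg
Sdhb, chr5:158547684-158547983, plus strand: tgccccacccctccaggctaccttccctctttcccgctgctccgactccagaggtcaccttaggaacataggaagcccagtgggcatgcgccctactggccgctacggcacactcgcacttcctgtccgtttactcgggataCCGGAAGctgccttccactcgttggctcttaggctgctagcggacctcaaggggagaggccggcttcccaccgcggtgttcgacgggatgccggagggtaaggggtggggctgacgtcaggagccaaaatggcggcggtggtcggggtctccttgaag
Ndufv1, chr1:210734842-210735141, minus strand: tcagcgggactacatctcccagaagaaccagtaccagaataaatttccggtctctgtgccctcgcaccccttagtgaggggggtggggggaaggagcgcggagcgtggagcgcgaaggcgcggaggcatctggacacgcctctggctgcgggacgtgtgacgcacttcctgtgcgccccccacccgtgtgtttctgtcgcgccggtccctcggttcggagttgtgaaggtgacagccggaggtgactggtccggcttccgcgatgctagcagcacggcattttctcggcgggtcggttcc

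The capitals are a YY1 motif just after the start of Ndufs7, a pair of GABPA motifs read from the opposite strand in Cox8a, an NRF1 and a YY1 motif in Uqcrc1 and a GABPA motif in Sdhb, while the window of Ndufv1 holds none of the 4. Ndufa4 and Ndufa12, which also followed the rest of the set closely, hold none either. Ndufs1, which ran against it, holds a GABPA motif. Motifs were not tested against the way the transcripts moved. The letters searched on both strands were GCGCATGCG for NRF1, CCGGAAG for GABPA, TCAAGGTCA for ERR and AAGATGGCG for YY1, each as an exact match. The NRF1 letters read the same on both strands when shifted by 1 base, so overlapping matches occur and each promoter was counted once. No motif contains another. NRF1 letters were in 9.09% of the 77 member promoters, 1.52% of all 33469 promoters and 3.16% of the 8303 promoters of other tested genes. GABPA letters were in 28.6% of member promoters, 8.75% of all and 17.4% of those of other tested genes. YY1 letters were in 14.3% of member promoters, 1.73% of all and 3.55% of those of other tested genes. ERR letters were in 2.6% of member promoters, 0.433% of all and 0.181% of those of other tested genes. In total 34 of 77 member promoters held at least 1 of the 4 motifs and 8 held 2 or more kinds. Median GC content was 56% in member promoters, 51.7% in all and 61% in those of other tested genes, and shares of exact letters move with base composition, so these are descriptions of the windows and say nothing of binding.

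With limma, 0 members and 0 probe sets in all (0% of 19312) had an adjusted p under 0.05 in any of the 3 comparisons. At an unadjusted p under 0.05 there was 1 member in both against osteocalcin (3.39% of all probe sets), 8 in osteocalcin against neither (7.5% of all) and 5 in both against neither (9.75% of all). The directions of the 90 tested members were uneven. Against osteocalcin colonies, both colonies had lower values for 74 of 90 members and higher values for 16, with a median log2 difference of -0.30, against -0.01 over all 19312 tested probe sets. Osteocalcin colonies had higher values than neither colonies for 72 of 90 members and lower values for 18, with a median of +0.26 against +0.03 over all. Both against neither colonies gave 42 higher and 48 lower, with a median of -0.02 against +0.01 over all. The first and second comparisons share the osteocalcin colonies, so their opposite signs are not independent of each other.

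The medians depended on the scaling. Under quantile normalization the 83 chip A members sat 0.04 log2 units above the median of all chip A probe sets in osteocalcin against neither, with 47 of 83 above it, whereas after rescaling alone they sat 0.33 above it with 68 of 83; in both against neither they sat at -0.27 under quantile normalization, against -0.01 after rescaling. Both against osteocalcin gave -0.29 under quantile normalization and -0.30 after rescaling. With the signals as deposited, the osteocalcin I array is dimmer, for a reason that was not tested. The medians of all chip A probe sets then moved to +0.86 in both minus osteocalcin and -0.90 in osteocalcin minus neither. Chip A members sat 0.04 above and 0.02 below those medians. The pseudocount there was taken over all chip A arrays, so on the dim array bright probe sets moved further than dim ones. Both minus osteocalcin went from -0.73 to +0.75 for Ndufa1 and from -0.19 to +0.62 for Ndufv1. This setting therefore cannot show where the members stand against other probe sets. The chip A shift carries the named genes with it. All 10 named differences of both minus osteocalcin and 4 of the 10 of osteocalcin minus neither turned sign with the deposited signals. The values given below are after rescaling.

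**Figure D1:**
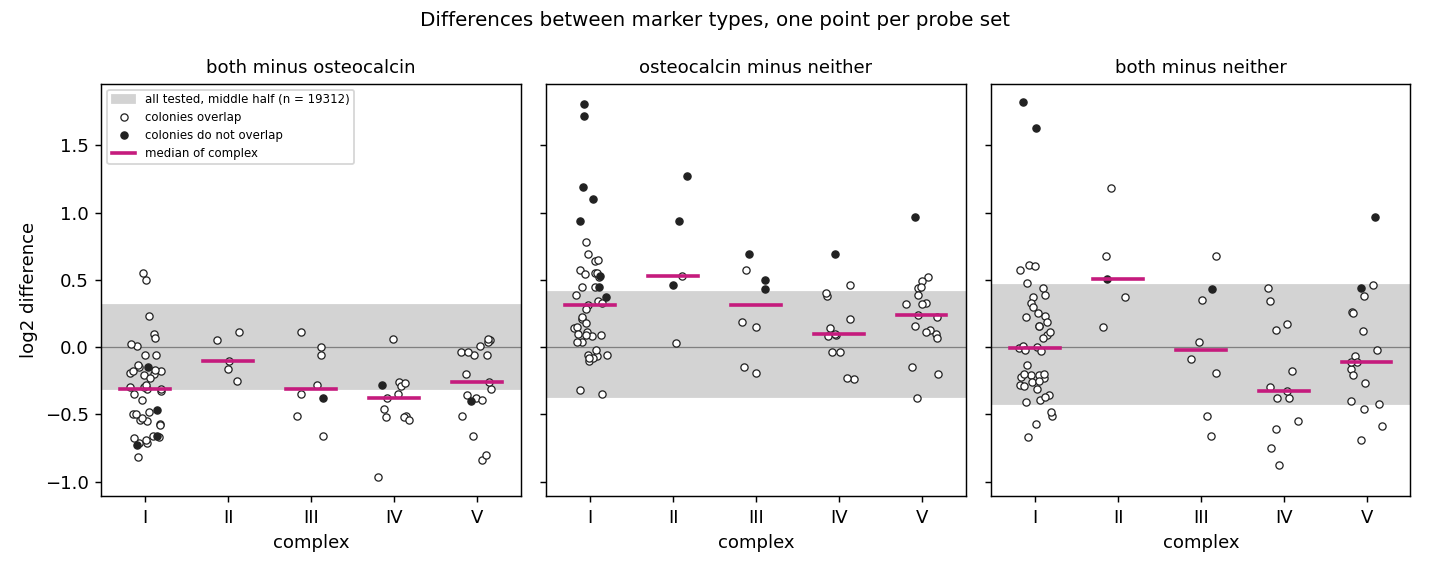
Each point is 1 of the 90 tested member probe sets, plotted by complex (horizontal axis) as its log2 difference between marker types (vertical axis); filled points have colonies that do not overlap, pink bars are medians per complex and the grey band is the middle range of all 19312 tested probe sets between the quartiles. Most points lie below 0 for both minus osteocalcin (74 of 90) and above 0 for osteocalcin minus neither (72 of 90, with a shift that nearly vanishes under quantile normalization), and the filled points of complex I with the largest differences are Ndufv1 and Ndufv2.

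The members spread widely among the colonies of the both type. The mean deviation of the 90 members from their own 9-colony means was -0.26, -0.44 and +0.42 log2 units in both I, II and III, +0.06, +0.30 and +0.25 in osteocalcin I to III, and -0.34, +0.01 and 0.00 in neither I to III; over all tested probe sets it stayed between -0.09 and +0.03 in every colony. The range within the both type was 0.86, while the 3 type means were -0.09, +0.20 and -0.11 for both, osteocalcin and neither. For single member probe sets a median of 23.5% of the variance lay between types, against 24.4% over all tested probe sets. Both III exceeded both I and both II in 75 of 90 members, where 43.9% of all chip A probe sets did so, and was the highest of the 9 colonies in 30 members, against 10.3% of all. Both II was the lowest of the 9 in 29 members (11.7% of all) and neither I in 21 (9.58% of all). Neither III was the lowest in 7 members and the highest in 5, against 23% and 23.3% of all chip A probe sets. Both III is also the only both colony that ran on station 2 of chip A.

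Members followed each other across the colonies. The correlation of each member with the mean of the members of other genes had a median of 0.65 over the 9 colonies and exceeded 0.5 for 61 of 90, whereas over the 9342 other tested chip A probe sets the median was -0.01 and 14.2% exceeded 0.5. All these values share the 9 arrays. Ndufs7, a complex I core subunit that binds an iron-sulphur cluster (r = 0.97), and Ndufa4, now counted as a complex IV subunit although its name places it in complex I (r = 0.97), followed the mean most closely, then Ndufa12, an accessory subunit (r = 0.94). The mean levels of complexes I, III, IV and V correlated with each other at 0.87 to 0.95 over the 9 colonies, while complex II correlated with those 4 at only 0.03 to 0.45. Ndufs7 shows the common pattern in its signals, which were 3861, 2488 and 8749.8 in both colonies I to III, 4866, 6051 and 6813.5 in osteocalcin colonies I to III and 2844, 4378 and 4867 in neither colonies I to III: both III was highest, both II lowest, and the types overlapped.

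**Figure D2:**
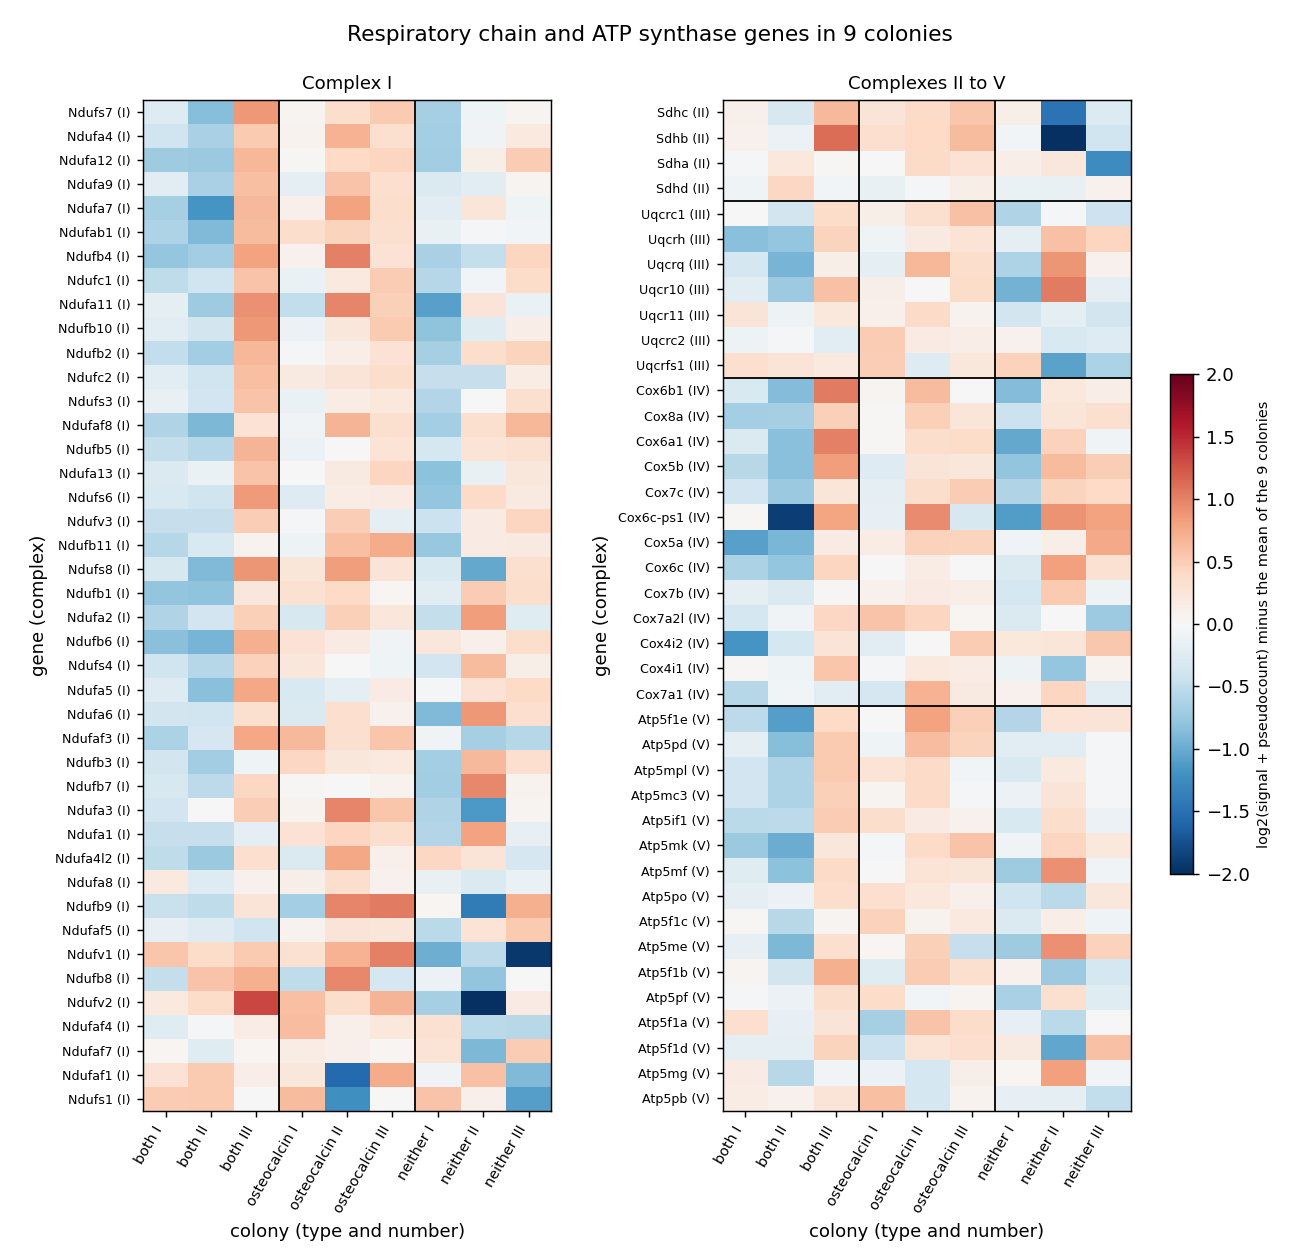
Colours give log2(signal + pseudocount) minus the 9-colony mean for 82 genes (rows, 1 probe set each, sorted within each complex by their correlation with the other members) in 9 colonies (columns); the colour scale ends at -2 and 2. The columns of both I, both II and neither I are mostly blue and that of both III mostly red, while Ndufv2, Sdhb and Sdhc are darkest in neither II.

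A marker list of another cell type moved with the set. The summed signal of 7 muscle markers (Acta2, Ckm, Cnn1, Des, Myh11, Myog and Tagln; 1 probe set each) was 61908, 11696 and 145686 in both I to III, 61743, 109255 and 238439 in osteocalcin I to III and 44209, 24770 and 116997 in neither I to III. None of the 7 was at 0, and the sum was carried by Tagln and Acta2, contractile proteins that cultured mesenchymal cells also make. The mean deviation of the 6 tested muscle markers correlated with the member mean at 0.84 over the 9 colonies. For the 3 tested blood cell markers the correlation was 0.44. For the 2 tested osteoblast markers, Spp1 and Col1a1, it was -0.13. In both against osteocalcin all 6 tested muscle markers were lower, with a median of -1.29, 0 called. The part of muscle-like cells in the members' levels was not tested.

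Within complex I, 42 genes gave 45 tested probe sets. The core subunits carry the electrons. The 6 core probe sets had mean deviations of +0.09, -0.14 and +0.70 in both I to III, +0.28, +0.19 and +0.44 in osteocalcin I to III and -0.44, -0.76 and -0.36 in neither I to III, so the neither colonies were the 3 lowest. The 32 probe sets of other subunits had -0.39, -0.54 and +0.50 in both I to III, -0.01, +0.38 and +0.24 in osteocalcin I to III and -0.41, +0.07 and +0.16 in neither I to III. The low core mean of the neither colonies was carried by Ndufv1 and Ndufv2, with osteocalcin minus neither at +1.81 and +1.72; Ndufs8 had +0.78, Ndufs7 +0.55, Ndufs3 +0.15 and Ndufs1 -0.06, with overlapping colonies for all 4. Core against other subunits was looked at after the values were known and was not tested.

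**Figure D3:**
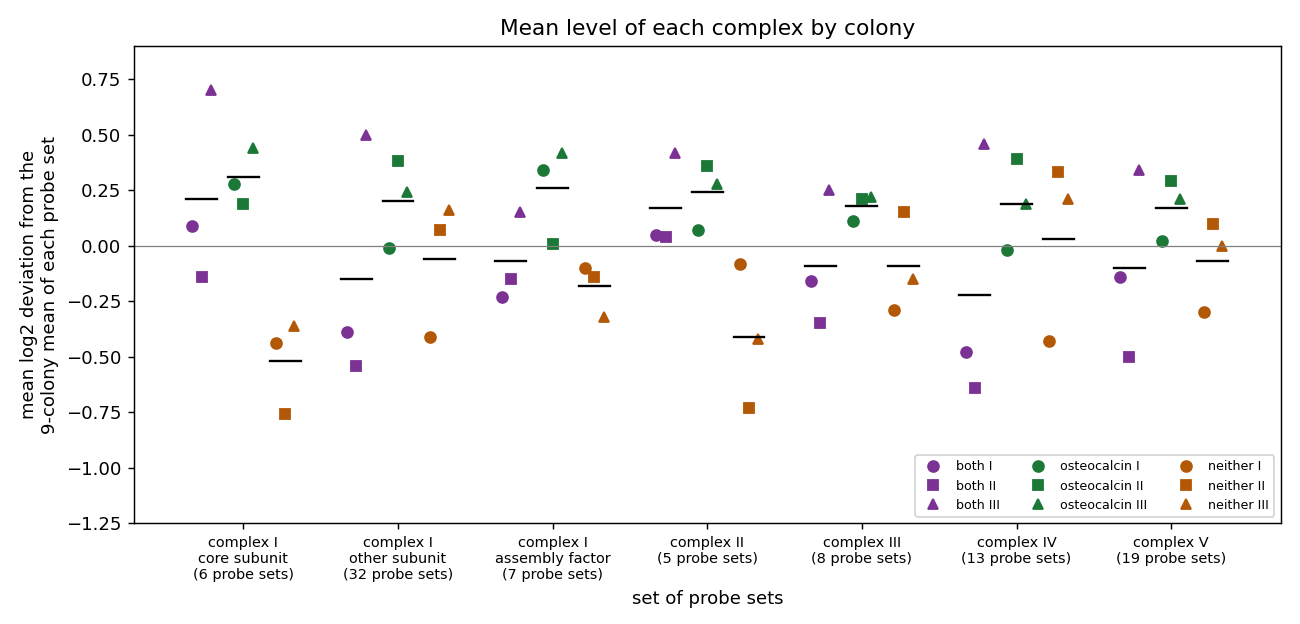
Each point is the mean log2 deviation (vertical axis) of a set of member probe sets (horizontal axis) in 1 colony, black bars are type means of 3 colonies, and colours mark both, osteocalcin and neither from left to right. In the complex I core subunits, where Ndufv1 and Ndufv2 carry the mean, and in complex II the neither colonies are lowest (-0.36 to -0.76 and -0.08 to -0.73), while in complexes III to V the both colonies spread most widely, by 1.11 log2 units in complex IV.

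Ndufv1, the flavoprotein at which NADH is oxidised, separated the neither colonies most clearly. Its signals were 1652, 1424.5 and 1608 in both colonies I to III, 1356, 1847 and 2349 in osteocalcin colonies I to III and 413.5, 657 and 100.0 in neither colonies I to III. All 3 neither colonies lay below all 6 others, with neither III lowest, as it was in 23% of all chip A probe sets. The log2 difference of osteocalcin minus neither was +1.81 (SE 0.4; 3.52-fold; limma, unadjusted p = 0.000584, adjusted p = 0.609), and that of both minus neither was +1.63 (SE 0.4; limma, unadjusted p = 0.00139, adjusted p = 0.342). Both minus osteocalcin was -0.19 (SE 0.4, adjusted p = 1). Leaving out each colony in turn kept osteocalcin minus neither between 1.42 and 2.12.

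Ndufv2, an iron-sulphur subunit beside Ndufv1, had signals of 7397, 8338 and 16577 in both colonies I to III, 9856.5, 8228 and 10335 in osteocalcin colonies I to III and 3942, 566 and 7206 in neither colonies I to III. Neither II was far below the rest, and both III was highest. Osteocalcin minus neither was +1.72 (SE 0.642, limma adjusted p = 0.621) and both minus neither was +1.82 (SE 0.642, adjusted p = 0.438); without neither II they were +0.79 and +0.89. Neither II is the colony with the low Gapdh 3'/5' ratio, although its beta-actin ratio was not low, and the part of RNA quality was not tested. Ndufv2 had the largest spread in complex I (SD 1.26 over the 9 colonies) and Ndufa8, an accessory subunit, the smallest (SD 0.217).

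**Figure D4:**
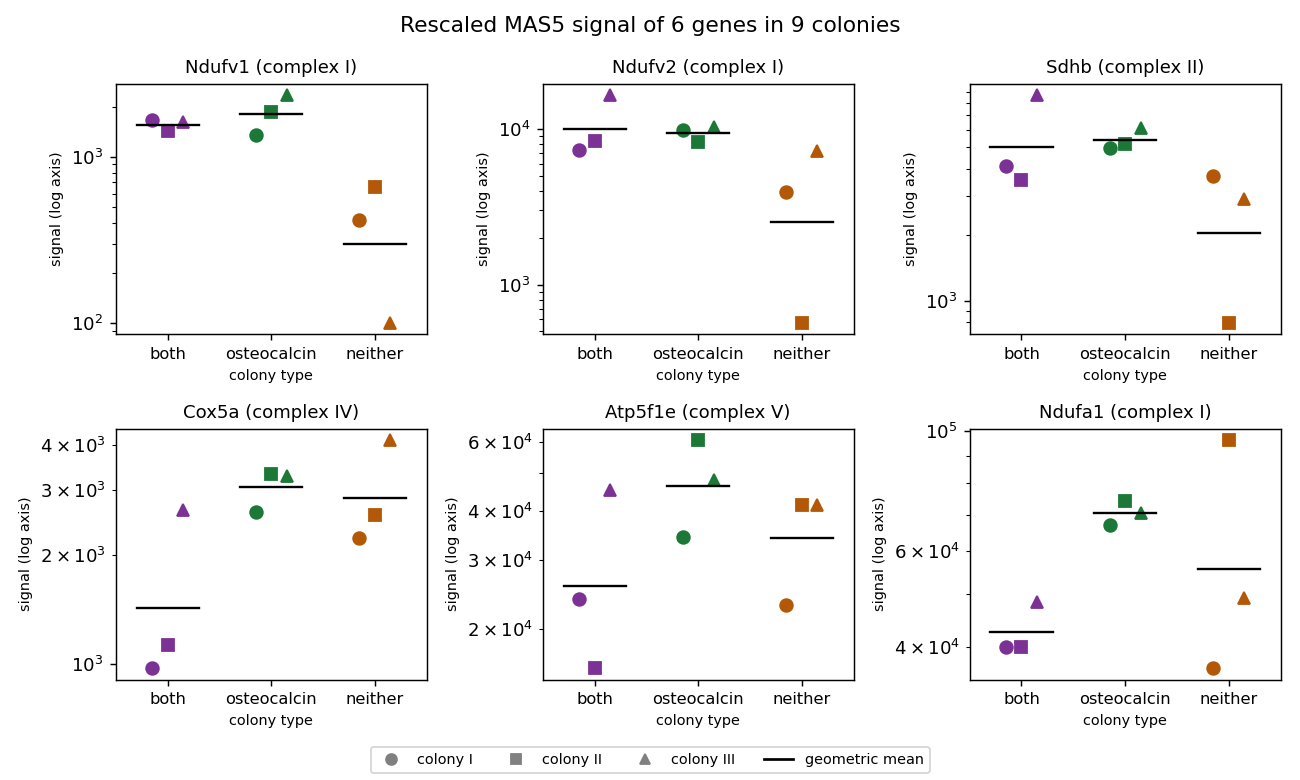
Points are the rescaled MAS5 signals (vertical, log axis with its own range in each panel) of 6 genes in colonies I, II and III of the both, osteocalcin and neither types (horizontal axis), and bars are geometric means. For Ndufv1 and Ndufv2 the 3 neither colonies lie below all others, while for Cox5a, Atp5f1e and Ndufa1 both I and both II lie below the 3 osteocalcin colonies.

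The other core subunits were mixed. Ndufs1, the largest iron-sulphur subunit, was lowest in osteocalcin II, with signals of 1523, 1541 and 993 in both colonies, 1676, 289 and 989 in osteocalcin colonies and 1604, 1086 and 340.4 in neither colonies, and ran against the mean of the other members (r = -0.58). Ndufs8, an iron-sulphur subunit near the ubiquinone site, had 2312, 1491.5 and 5673.5 in both colonies, 3534, 5439 and 3579.7 in osteocalcin colonies and 2351, 1326 and 3761 in neither colonies, and Ndufs3 had 3278.5, 2729 and 5509 in both colonies, 3293, 4060.1 and 4238 in osteocalcin colonies and 2346, 3679 and 4633 in neither colonies. Neither gene separated any pair of types.

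Among accessory subunits of complex I, Ndufa1, a small membrane subunit encoded on the X chromosome, had the smallest p of those that separated both from osteocalcin colonies. Its signals were 39976, 39978.5 and 48320.2 in both colonies I to III, 67171, 74298 and 70427 in osteocalcin colonies I to III and 36512, 96116 and 49197 in neither colonies I to III. The 3 both colonies lay below the 3 osteocalcin colonies and neither II was the highest of all. Both minus osteocalcin was -0.73 (SE 0.414, limma adjusted p = 1). Ndufb3, another small membrane subunit, had 19393, 15396 and 23705 in both colonies and 33588, 29212 and 28693 in osteocalcin colonies, which is -0.66 (SE 0.4, adjusted p = 1).

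Ndufa3 separated osteocalcin from neither colonies. Its signals were 7703, 14548 and 10896 in osteocalcin colonies and 4724, 3178.5 and 7585 in neither colonies, and osteocalcin minus neither was +1.10 (SE 0.401, limma adjusted p = 0.621). Ndufa8, Ndufab1, the mitochondrial acyl carrier protein, and Ndufc2 also had all osteocalcin colonies above all neither colonies, by +0.37, +0.45 and +0.53. The gap of Ndufa8 was narrow: 2804, 3323 and 2721 in osteocalcin colonies against 2285, 2064.5 and 2314 in neither colonies.

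Assembly factors of complex I build the enzyme but are not part of it. Ndufaf3 had 1940.4, 1498 and 1803 in osteocalcin colonies and 1086, 637 and 698 in neither colonies (+0.94, SE 0.4, limma adjusted p = 0.621). Ndufaf5 had 1632, 1514 and 1344 in both colonies and 1963, 2275 and 2235 in osteocalcin colonies (-0.47, SE 0.34, adjusted p = 1). Ndufaf7 was read by 2 probe sets that did not follow each other (r = -0.32 over the 9 colonies). On chip A it had 1318, 1051 and 1319.9 in both colonies and 1440.2, 1399.6 and 1331 in osteocalcin colonies, a difference of -0.15, and -0.06 without both II. On chip B it had 3036, 1836 and 3154 in osteocalcin colonies and 1818, 1603 and 184 in neither colonies, a difference of +1.19 (SE 0.547, adjusted p = 0.648), and +0.53 without neither III.

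Complex II, which also works in the citric acid cycle, was among the 5 complexes the one whose colonies ordered differently. Its 5 tested probe sets had mean deviations of +0.05, +0.04 and +0.42 in both I to III, +0.07, +0.36 and +0.28 in osteocalcin I to III and -0.08, -0.73 and -0.42 in neither I to III. All 5 were higher in osteocalcin than in neither colonies (median +0.53) and all 5 were higher in both than in neither colonies (median +0.51), while both against osteocalcin had a median of -0.10. No probe set was called. Low means in neither II and III were not particular to complex II. In neither I to III the electron carriers described below had -0.06, -0.74 and -0.48, citric acid cycle genes -0.06, -0.35 and -0.40, and glycolysis genes -0.05, -0.32 and -0.43. Assembly factors of complexes II to V (-0.22, +0.23 and -0.33) and regulators (-0.25, -0.01 and -0.33) had another order.

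Sdhb, the iron-sulphur subunit, had signals of 4117, 3556 and 8675 in both colonies I to III, 4953, 5178.5 and 6151 in osteocalcin colonies I to III and 3705, 790.1 and 2895 in neither colonies I to III. Neither II was lowest and both III highest, and the osteocalcin colonies lay above the neither colonies. Osteocalcin minus neither was +1.27 (SE 0.49, limma adjusted p = 0.621), and +0.68 without neither II. Sdhc, a membrane anchor, had 7077, 5214 and 10442 in both colonies, 7897, 8679 and 9731 in osteocalcin colonies and 7189, 2209 and 5429 in neither colonies, with neither II lowest again. Osteocalcin minus neither was +0.94 (SE 0.426, adjusted p = 0.652), and +0.47 without neither II. Sdha is the flavoprotein that oxidises succinate. It had 6003, 7136 and 6217 in both colonies, 6162, 8065 and 7536 in osteocalcin colonies and 6718, 7234 and 2416 in neither colonies. Only neither III was low, the colony that was lowest in 23% of all chip A probe sets.

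The second anchor, Sdhd, was read by 2 probe sets that did not follow each other (r = 0.00 over 9 colonies). One had 3873, 3374 and 4318.5 in both colonies, 3153, 5362 and 2943 in osteocalcin colonies and 2401, 2769.8 and 2694 in neither colonies, and both minus neither was +0.51 (SE 0.323, limma adjusted p = 0.6) with no overlap. The other had 7819, 11229.6 and 8000.2 in both colonies, 7504, 8110.0 and 9061 in osteocalcin colonies and 7596, 7556 and 8929.5 in neither colonies, the smallest spread in complex II (SD 0.183), and showed no such order. Sdhb had the largest (SD 0.873).

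Complex III had 8 tested probe sets, with medians of -0.31 in both against osteocalcin, +0.31 in osteocalcin against neither and -0.02 in both against neither. Uqcrc1, a core protein of the matrix side, had 7386, 5749 and 9693 in both colonies, 8134, 9372.5 and 11339.5 in osteocalcin colonies and 4828, 7288 and 5554 in neither colonies. Its osteocalcin colonies lay above its neither colonies, by +0.69 (SE 0.334, limma adjusted p = 0.68). Uqcrc2, the partner core protein, had 3611, 3778.5 and 3331 in both colonies and 5602, 4380.3 and 4292 in osteocalcin colonies, which is -0.38 (SE 0.299, adjusted p = 1). Its second probe set, on chip B, ran the other way across colonies (r = -0.46).

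The small subunits of complex III behaved otherwise. Uqcr10 had the largest spread of the complex (SD 0.619), with signals of 16463, 11602 and 29031 in both colonies, 20964.5, 19221 and 24975 in osteocalcin colonies and 9922, 39879 and 16985 in neither colonies; neither II was highest and neither I lowest. Uqcr11 had 12726, 9953 and 12424 in both colonies, 11497, 13943 and 11251 in osteocalcin colonies and 8174, 9301 and 8230.3 in neither colonies, with all neither colonies below all others (both minus neither +0.43, SE 0.307, limma adjusted p = 0.637). Uqcrfs1, the Rieske iron-sulphur protein, had 4405, 4177 and 3959.8 in both colonies, 4919.6, 2824 and 4091 in osteocalcin colonies and 4814.5, 1519 and 2136 in neither colonies, with neither II and neither III low and no separation of types.

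Complex IV had 13 tested probe sets, of which 12 were lower in both than in osteocalcin colonies (median -0.38), 9 were higher in osteocalcin than in neither colonies (median +0.10) and 9 were lower in both than in neither colonies (median -0.33). Cox5a, a subunit on the matrix side, had the only unadjusted p under 0.05 of the set in both against osteocalcin. Its signals were 976.5, 1127 and 2647 in both colonies I to III, 2619, 3321 and 3289 in osteocalcin colonies I to III and 2217.5, 2568 and 4117 in neither colonies I to III. Both I and both II were the lowest of the 9 colonies, and both III overlapped osteocalcin I. Both minus osteocalcin was -0.97 (SE 0.388; limma, unadjusted p = 0.0269, adjusted p = 1), and -1.36 without both III. Both minus neither was -0.88 (SE 0.388, adjusted p = 0.497), and -0.11 with fluidics station as a block. Osteocalcin minus neither was +0.09 (SE 0.388, adjusted p = 0.971).

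Several complex IV subunits exist as tissue isoforms, and each is given here against its own array's median, not against the level of another isoform. Cox4i1, the general form, was above the array median on all 9 arrays, with signals of 8929, 8282 and 13105 in both colonies, 8625, 10123 and 9790.4 in osteocalcin colonies and 8226, 5027 and 9212 in neither colonies. Cox4i2, known in lung and in hypoxic cells, had 208, 556 and 965 in both colonies, 627, 762 and 1199.9 in osteocalcin colonies and 929.8, 957.5 and 1223 in neither colonies and was above the median on 5 arrays. Cox6a1, the general form, had 24067, 16460.0 and 59154 in both colonies, 29898, 37768 and 38223 in osteocalcin colonies and 14421, 40554 and 27971 in neither colonies, while Cox6a2, the heart and skeletal muscle form, had 775, 117 and 468 in both colonies, 151, 739.7 and 626 in osteocalcin colonies and 560.1, 298 and 1897 in neither colonies and exceeded the median on 2 arrays. Cox8a had 29689, 30115 and 66819 in both colonies, 48509.6, 66713 and 57005 in osteocalcin colonies and 35466, 56431 and 60035 in neither colonies, while the muscle form Cox8b had 48, 80.0 and 114 in both colonies, 99, 625.5 and 63 in osteocalcin colonies and 180.4, 48 and 1427 in neither colonies and exceeded the median on 1 array, neither III. Cox6b2, the testis form, exceeded it on none.

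Of the Cox7a forms, Cox7a1, the heart and skeletal muscle form, had 669, 1059 and 931.5 in both colonies, 839, 1945 and 1295 in osteocalcin colonies and 1199, 1592 and 924 in neither colonies and exceeded the median on 7 arrays. Cox7a2l, a factor that joins complexes III and IV, had 14143, 17211 and 24324 in both colonies, 27101.5, 24508 and 18611 in osteocalcin colonies and 14748.5, 18182 and 10829.6 in neither colonies, and its osteocalcin colonies lay above its neither colonies (+0.69, SE 0.362, limma adjusted p = 0.695). Cox7a2 had no probe set of its own symbol alone. Cox7b, a small membrane subunit, had the smallest spread in complex IV (SD 0.27) and yet separated both from osteocalcin colonies: 7852, 7272 and 9078 in both colonies against 9466, 10092 and 9806 in osteocalcin colonies, a difference of -0.28 (SE 0.33, adjusted p = 1). The largest spread (SD 0.991) belonged to Cox6c-ps1, which the annotation names as a pseudogene and whose probes may also bind transcripts of Cox6c, with signals of 1374, 193 and 2489.6 in both colonies, 1178, 2817 and 1027 in osteocalcin colonies and 495, 2708 and 2541 in neither colonies.

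ATP synthase had 19 tested probe sets, with medians of -0.26 in both against osteocalcin, +0.24 in osteocalcin against neither and -0.11 in both against neither. Atp5f1e, a central stalk subunit, had signals of 23789, 15888 and 45197 in both colonies I to III, 34339.7, 60575 and 47975 in osteocalcin colonies I to III and 22950.0, 41496 and 41340.5 in neither colonies I to III. Both II was lowest and osteocalcin II highest, and both III overlapped the osteocalcin colonies. Both minus osteocalcin was -0.84 (SE 0.454, limma adjusted p = 1), and ran from -1.24 without both III to -0.50 without both II. Osteocalcin minus neither was +0.44 (SE 0.454, adjusted p = 0.829), and ran from +0.16 without neither I to +0.66 without osteocalcin I. Both minus neither was -0.40 (SE 0.454, adjusted p = 0.774), ran from -0.80 without both III to -0.05 without both II, and was +0.41 with fluidics station as a block. Its SD over the 9 colonies was 0.614, below the 0.689 of the chip B probe set of Atp5po, a peripheral stalk subunit, and the largest when each gene is read by 1 probe set.

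Atp5f1c, the rotating shaft of the central stalk, gave a different order on each chip. On chip A its SD over the 9 colonies was 0.291, the smallest of the complex with 1 probe set per gene, although a second probe set of Atp5me had 0.288. There it had 18755, 12461 and 19087 in both colonies and 25503, 19245 and 21016 in osteocalcin colonies, a difference of -0.40 (SE 0.338, limma adjusted p = 1), and -0.20 without both II. On chip B it had 3021, 2567 and 3313 in both colonies, 3289, 2967 and 2602 in osteocalcin colonies and 923, 2183 and 1153 in neither colonies, so the neither colonies lay below all others (osteocalcin minus neither +0.97, SE 0.416, adjusted p = 0.621; both minus neither +0.97, SE 0.416, adjusted p = 0.485). On chip B, station 1 processed the 3 both colonies with neither I, and station 2 processed the 3 osteocalcin colonies with neither II and III, so station and type cannot be told apart on that chip for both against osteocalcin. The correlation of these probe sets over the 9 colonies was 0.45.

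The catalytic head did not separate types. Atp5f1a had 8819, 6194 and 8385 in both colonies, 4319, 10474 and 9043 in osteocalcin colonies and 6188, 4688 and 6943 in neither colonies, and Atp5f1b, its catalytic partner, had 21431, 15907 and 33941 in both colonies, 17371, 29453 and 25746 in osteocalcin colonies and 22029.5, 12426 and 16151 in neither colonies. Atp5pb, a peripheral stalk subunit, had 10942, 10439.5 and 11809.6 in both colonies and 8741, 8621 and 6939 in neither colonies, without overlap (+0.44, SE 0.336, limma adjusted p = 0.656). Of the 3 genes for the proton-carrying ring, only Atp5mc3 had a probe set of its own symbol alone, with signals of 25769, 21799.6 and 47097 in both colonies, 35008, 43901 and 32923.5 in osteocalcin colonies and 31139, 40459 and 32635 in neither colonies. Atp5if1, the inhibitor that stops the enzyme from running backwards, had 4401, 4444 and 9265 in both colonies, 8327, 7295 and 6868 in osteocalcin colonies and 5201, 8358 and 5959 in neither colonies; both I and both II were lowest and both III highest, and its other 2 probe sets were too dim to test.

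Counts of members by group separation were set against the same counts over all tested probe sets. In both against osteocalcin, 7 members had all both colonies below all osteocalcin colonies and 0 the reverse, where 5.49% and 4.6% of all probe sets did so. In osteocalcin against neither, 16 members had all osteocalcin colonies higher and 0 all lower, against 6.34% and 5.87% of all. In both against neither, 6 members had all both colonies higher and 0 all lower, against 6.34% and 8.31% of all. The widest gap to the background was the 16 of 90 in osteocalcin against neither. Members follow each other across colonies and are not separate observations, so these counts are descriptions.

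One colony moved several of these values. Without both III, both minus osteocalcin had a median of -0.57, against -0.04 over all tested probe sets, with 0 of 19312 called. Both minus neither then had a median of -0.33. Without both II, the median of both minus osteocalcin was -0.08. Without neither I, the median of osteocalcin minus neither was +0.10. By complex, the median of both minus osteocalcin without both III was -0.63 in complex I, -0.43 in complex III, -0.79 in complex IV and -0.50 in complex V, and without both II it was -0.08, -0.07, -0.21 and -0.09 in the same order; in complex II it ran from -0.16 to +0.04. Without neither I, osteocalcin minus neither had medians of +0.23 in complex I, +0.13 in complex III, -0.08 in complex IV and +0.12 in complex V, and in complex II the lowest was +0.45, without osteocalcin II. Both minus neither ran from -0.30 to +0.22 in complex I, -0.14 to +0.16 in complex III, -0.65 to -0.11 in complex IV and -0.37 to +0.12 in complex V, and stayed between +0.43 and +0.60 in complex II. Within station 1 of chip A, which holds both I, both II and the 3 osteocalcin colonies, both minus osteocalcin was -0.59 over 83 members. There 0 members were called, against 38 of all 9425 tested chip A probe sets. Within station 2 of chip A, both III alone stood 0.54 above the 3 neither colonies, and with station as a block osteocalcin minus neither was +1.06 and both minus neither +0.52. On chip A that block rests on both III against both I and II. The block values therefore carry the difference of both III and cannot be read as corrected for station. Without osteocalcin III, whose arrays did not match each other best, the medians were -0.28 in both minus osteocalcin and +0.23 in osteocalcin minus neither.

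Different probe sets of a gene did not follow each other closely. Of 11 genes with several member probe sets, 8 had a pair of tested ones, and their correlations over the 9 colonies ran from -0.46 to 0.45. The signs of the pair's differences were the same in 4 of 8 pairs for both minus osteocalcin, 6 of 8 for osteocalcin minus neither and 3 of 8 for both minus neither. In 6 of the 8 pairs the second probe set was on chip B; those of Uqcrc2, Atp5f1c, Atp5po and Ndufaf7 exceeded the array median on 8 or 9 of 9 arrays, and those of Ndufa12 and Ndufa7 on 3.

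Genes that work beside the complexes were read from lists chosen with earlier results known, with 1 probe set per gene and 0 called in any list. The list of electron carriers and exchangers held Cyc1, Slc25a3, Slc25a4, Slc25a5, Vdac1, Vdac2 and Vdac3. Cyc1 belongs to complex III itself but is outside the symbol rule of the members. Cycs, which encodes cytochrome c, had no probe set of its own symbol alone. The list was higher in osteocalcin than in neither colonies for 7 of 7 genes (median +0.64) and lower in both than in osteocalcin colonies for 7 of 7 (median -0.19). Slc25a4, which exchanges ADP for ATP, had 35141, 27110.2 and 49406 in both colonies, 35649, 41977 and 44399 in osteocalcin colonies and 28369.6, 7722.5 and 28089 in neither colonies, with neither II lowest. Cyc1, the cytochrome of complex III, had 6371, 4237 and 11531 in both colonies, 7937, 7929 and 13121 in osteocalcin colonies and 5641, 2395.5 and 6247 in neither colonies, also lowest in neither II; osteocalcin minus neither was +1.05 (SE 0.451, limma adjusted p = 0.624). Of 21 tested assembly factors of complexes II to V, 16 were higher in osteocalcin than in neither colonies (median +0.25).

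Citric acid cycle genes had a median of +0.37 in osteocalcin against neither, with 10 of 13 higher, and their mean did not follow the members (r = -0.13 over the 9 colonies). Glycolysis genes had +0.43, with 10 of 12 higher, and followed the members at r = 0.61. Of 10 tested regulators of mitochondrial gene expression, 8 were higher in both than in osteocalcin colonies, with a median of +0.52. Tfam and Polrmt were dim, with signals below the pseudocount of 238.7 in osteocalcin II and III. Yy1 was read on chip A (+0.61), while its tested chip B probe sets gave +0.01 and +1.01. The 4 regulators on chip A were all higher (median +0.77) and 4 of the 6 on chip B were (median +0.26). On chip B station and type cannot be told apart in this comparison. The difference of the regulators from the members was not tested. Among them Tfam, which packages mitochondrial DNA and activates its transcription, had 1078, 1538 and 461 in both colonies, 1279.8, 144 and 167 in osteocalcin colonies and 72, 922 and 156 in neither colonies, and Ppargc1b, a coactivator of ERR, had 2674, 2636 and 3487 in both colonies, 1326, 2602 and 409 in osteocalcin colonies and 1390.1, 2759.5 and 478 in neither colonies; both minus osteocalcin was +0.93 (SE 0.69) and +1.08 (SE 0.574), with a limma adjusted p of 1 for each. Their mean correlated with the member mean at -0.47.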

How the data were processed

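Expression was read on 18 Affymetrix arrays, 1 RAE230A and 1 RAE230B for each of 9 colonies, grouped by their sample descriptions. Per the file headers and the submitters' notes on processing, the deposited intensities are MAS5 signals, 1 linear value for each probe set; no source used here gives the MAS5 version or its settings. The small number of arrays limits the precision, and members' differences had a median standard error of 0.403 log2 units.

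Arrays were first brought to a common 2%-trimmed mean of 1500. Symbols are those of the platform annotation, and probe sets with several symbols were left unnamed; the RefSeq gene table held 12754 of the 12789 single-symbol probe sets of chip A and 7530 of the 7570 of chip B. Probe sets above their array's median in 3 or more of 9 colonies were tested: 9425 on chip A and 9887 on chip B. The pseudocount was the median of the arrays' 25th percentiles, 238.7 on chip A and 336.2 on chip B. The limma package (3.58.1, R 4.3.3) fitted the chips separately, with 1 mean per colony type, an intensity trend and 6 residual degrees of freedom. Its two-sided moderated p-values were adjusted over all 19312 probe sets of both chips (Benjamini-Hochberg), and calls needed an adjusted p under 0.05. For 3 against 3 colonies the smallest p of an exact permutation test would be 0.1.

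The members and all gene lists (electron carriers, assembly factors, citric acid cycle, regulators, glycolysis, and markers of osteoblasts, adipocytes, muscle, blood and endothelium) were chosen with earlier results of these data known. For lists, a gene was read by 1 probe set, preferring chip A and then the brightest. Named genes were, per comparison, up to 8 members per direction with the smallest p among those whose colonies did not overlap, then Ndufv1, Cox5a and Atp5f1e, the complex II genes, isoform sets and inhibitor, and the member of each complex with the largest and the smallest spread (1 probe set per gene). Ndufs1, Ndufs3, Ndufs7, Ndufs8, Ndufa4, Ndufa12, Ndufab1, Ndufc2, Uqcrc1, Uqcrfs1, Atp5f1a, Atp5f1b and the genes of other lists were named after their values were seen.

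The steps were checked by simulation. In 10 simulated data sets of both minus osteocalcin over 19312 probe sets, each with 200 changed, the fit called 31.7% of the probe sets shifted by 2 log2 units and 70.4% of those shifted by 3, and 3.59% of its calls were false. Alternatives were other scalings, pseudocounts, filters and weights, leaving out each colony, and blocks for station and colony number. Promoters are those of the RefSeq table for GRCr8. Python 3.11.15 with matplotlib 3.10.9 drew the figures.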

Additional observations from a re-analysis of the deposited data

How the results depend on the processing

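No member was called under any alternative except array weights, which called 1 member, Cox5a, in both minus osteocalcin (-1.39) among 87 of all probe sets. The median of the members was -0.30 in both minus osteocalcin, +0.26 in osteocalcin minus neither and -0.02 in both minus neither. It became +0.89 and -0.91 in the first and second with signals as deposited, where the osteocalcin I array on chip A is dimmer. With fluidics station as a block, which on chip A rests on both III against both I and II alone, it was +1.06 in osteocalcin minus neither and +0.52 in both minus neither. It was +0.54 in both minus neither within station 2 of chip A, and -0.04 in osteocalcin minus neither within station 2 of chip B, which holds 7 tested members; the cause was not tested. Leaving out 1 colony at a time, the medians ran from -0.57 (without both III) to -0.08 (without both II), from 0.10 (without neither I) to 0.36 (without osteocalcin I) and from -0.33 (without both III) to 0.12 (without both II), with 0 members called each time.

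Of 569 alternative values of the named genes' differences, 551 kept their direction and their side of the threshold, 17 turned sign and 1 passed it. Some alternatives cannot change a difference, such as leaving out a colony of the third type or dropping the intensity trend. The count is therefore no measure of how firm the differences are. With signals as deposited, both minus osteocalcin was +0.75 for Ndufa1, +0.79 for Ndufb3, +0.46 for Ndufaf5, +0.82 for Uqcrc2, +1.03 for Atp5f1c and for Cox7b, +0.67 for Ndufaf7, +0.60 for Atp5f1e, +0.04 for Cox5a and +0.62 for Ndufv1. Osteocalcin minus neither was then -0.17 for Ndufa3, -0.33 for Sdhc, -1.00 for Atp5f1e and -0.92 for Cox5a. Cox5a ran from -0.08 without neither I to 0.33 without neither III in that comparison. Atp5f1e was +0.41 in both minus neither with station as a block and within station 2 of chip A. Of 355 alternative medians per complex, 318 moved by less than the spread between colonies of a type, and here too some alternatives cannot move the value.

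The colony numbers are shared across types, and the labels do not say whether they pair the samples. The deviations of same-numbered chip A arrays correlated from -0.15 to 0.325, which cannot settle it, and the main fit used no pairing. With the number as a replicate block, the medians were -0.30, +0.26 and -0.02, 0 members were called in each comparison, and 2 probe sets in all were called in both minus osteocalcin, against 0 without the block.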

Other observations

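Other marker lists showed 0 called genes in each comparison. Of 2 tested adipocyte markers, Adipoq was lower in both than in osteocalcin colonies by a difference of -0.74. Pparg was highest in both III. Its signals were 570.4, 583 and 2205 in both colonies, 682, 633 and 531 in osteocalcin colonies and 1273, 301 and 357 in neither colonies. In both III 70 of 90 respiratory chain members lay above their own 9-colony median, against 44% of all chip A probe sets. In osteocalcin II, where Pparg was 633, 71 members did, against 46.3% of all. A link of Pparg to the members was not tested. The summed signal of the 6 adipocyte markers was 2713, 1907 and 5171 in both colonies, 2705, 2592 and 3933 in osteocalcin colonies and 3210, 2788 and 2623 in neither colonies. The mean deviation of the 2 tested ones, Adipoq and Pparg, correlated with the member mean at 0.45 over the 9 colonies. The 3 tested blood cell markers were all lower in both than in osteocalcin colonies (median -0.39), and Ptprc, which marks white blood cells, was below the array median on all arrays. Of the endothelial markers Tek alone could be tested (+0.02 in both minus osteocalcin), and Kdr and Pecam1 were below the median on all arrays. The 2 tested osteoblast markers had medians of -0.27 in both minus osteocalcin and -0.22 in osteocalcin minus neither.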
